A study of Arabidopsis thaliana with 6 samples.

Results

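CLE genes encode small secreted signalling peptides of plants, and 5 of them, CLE41 (AT3G24770), CLE44 (AT4G13195), CLE26 (AT1G69970), CLE27 (AT3G25905) and CLE21 (AT5G64800), are described here in Arabidopsis thaliana seedlings that overexpress ASL9. ASL9, also called LBD3, is a transcription factor of the plant-specific LBD family. Each of the 5 genes was read by 1 probe set, a group of short oligonucleotides for 1 transcript, and these are 5 of the 22810 probe sets on the array and 5 of the 13350 genes that could be named. These 5 are not all the CLE genes with a probe set, and they were chosen with the difference between ASL9-ox and wildtype signals on these same arrays in view. Their own differences are therefore given as a description, with standard errors and without tests.

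The study compared 3 arrays labelled ASL9-ox, from a transgenic line, with 3 arrays labelled wildtype, from accession Col-0 (stock N1092). Seedlings of both groups were 2 weeks old and grew on upright plates of Murashige and Skoog agar. The tissue is labelled as aerial parts, although the extraction text mentions only seedlings. The labels give neither the promoter of the transgene nor the number of independent lines, nor the background accession of the ASL9-ox line.

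A CLE precursor carries a signal for secretion and, near its end, a short conserved motif that is cut out and modified to give the active peptide. The peptide is perceived outside the cell by receptor kinases with leucine-rich repeats. CLE41 and CLE44 yield the same peptide, called TDIF, which is made in the phloem and perceived by the receptor kinase PXY in the neighbouring procambium, where it promotes cell division through WOX4 and holds back differentiation into xylem. Other CLE peptides restrict stem cells at the shoot tip (CLV3) or act in the root tip (CLE40).

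Signals are linear and scaled to the same trimmed mean on every array. The median signal per array was between 34.3 and 37.0, and 36.8% to 37.9% of the probe sets lay below 16. No probe set was joined to ASL9 alone through the annotation (0 of 22810). Probe sets paired with several genes were not searched. The overexpression of ASL9 was therefore not checked, and every direction rests on the sample labels. Wildtype replicate 2 stood apart from the other arrays, with a residual SD (log2) of 0.231, compared with 0.128 to 0.161 for the remaining 5. Fold changes are differences of means of log2(signal + 16), ASL9-ox minus wildtype, a scale that understates the change of dim genes. In tissue of mixed cell types, fewer cells of a type and less RNA per cell cannot be told apart.

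All 5 CLE genes had higher signals on every ASL9-ox array than on any wildtype array. The same held for 26.4% of all 22746 probe sets other than controls, and nothing is read from the count, because the family was picked on this contrast. CLE41 was the only one of the 5 with a signal above 100, and CLE26 had the largest fold change with 16 or 1 added to the signal, whereas with 64 added CLE41 (0.48) exceeded CLE26 (0.34). CLE44 was near the middle of the signals of its array, CLE26 exceeded 16 in ASL9-ox only, and CLE27 and CLE21 had means below 16 in both groups. Without detection calls, such dim signals could not be set against background.

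**Figure D1:**
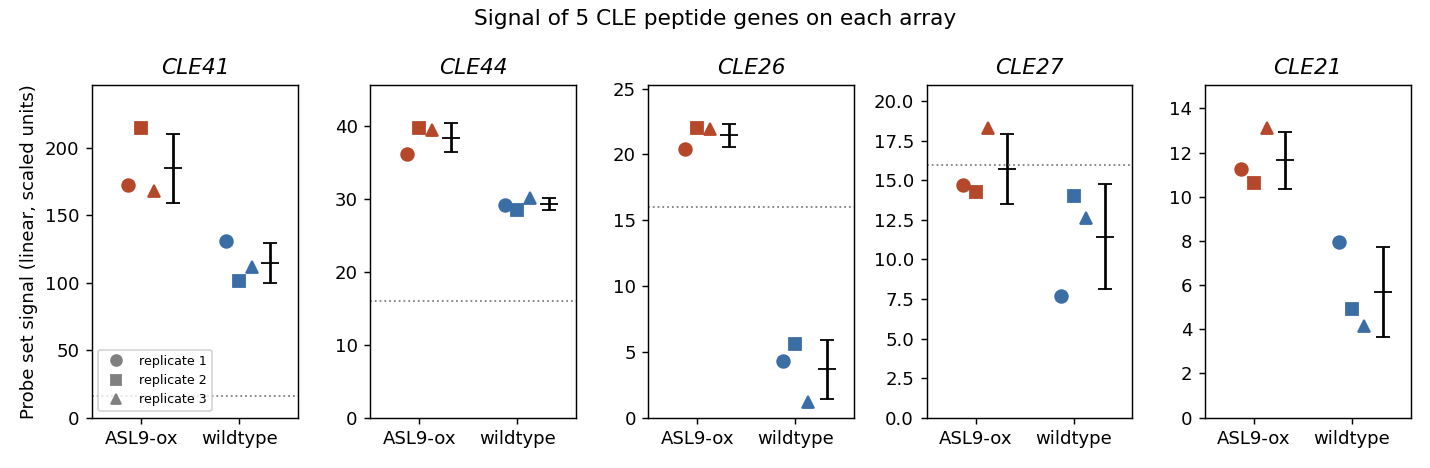
Linear probe set signal (vertical axis, from 0, with its own range in each panel) of 5 CLE genes on the 3 ASL9-ox arrays (left, red) and the 3 wildtype arrays (right, blue); symbols mark the replicate number, black bars the mean ± SD (n = 3), and the dotted line a signal of 16. In each panel the lowest ASL9-ox array lies above the highest wildtype array, by 37.3 for CLE41 but by only 0.259 for CLE27.

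CLE41, one of the TDIF genes, read 172.5, 214 and 168 on the ASL9-ox arrays, against 131, 102 and 112 on the wildtype arrays. The lowest ASL9-ox array exceeded the highest wildtype array by 37.3. Signals averaged 185 ± 25.6 in ASL9-ox and 115 ± 14.8 in wildtype (SD, n = 3 each), a ratio of 1.61. The log2 fold change was 0.62 ± 0.14 (SE from the 6 arrays of this gene alone, as for all CLE genes), and 7.755% of the 17059 tested probe sets had a larger one.

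CLE44, the other TDIF gene, read 36.1, 39.7 and 39.4 on the ASL9-ox arrays, against 29.2, 28.5 and 30.1 on the wildtype arrays. Its replicates lay close together and the groups were separated by 5.99. The means were 38.4 ± 1.99 in ASL9-ox and 29.3 ± 0.804 in wildtype (SD, n = 3 each), a ratio of 1.31. The log2 fold change of 0.26 ± 0.03 (SE; 0.09 in limma, which shares the spread across probe sets) was exceeded by 27.0% of the tested probe sets, whose median was 0.08. It was 0.38 with 1 added to the signal and 0.13 with 64 added. The separation of CLE44 depended on the scaling: with arrays centred on the hybridization controls, bacterial and phage transcripts added to every sample, the lowest ASL9-ox value lay 0.01 below the highest wildtype value on the log2 scale (a gap of -0.01, against 0.18 as deposited). These controls were 0.09 higher in ASL9-ox on the log2 scale, with means of 7.95 to 8.10 on the ASL9-ox arrays and 7.82 to 8.01 on the wildtype arrays, which overlap.

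CLE26, whose synthetic peptide is known to block the formation of protophloem in roots, read 20.4, 21.99 and 21.95 on the ASL9-ox arrays, against 4.27, 5.56 and 1.20 on the wildtype arrays. The ASL9-ox arrays agreed closely, and all wildtype arrays lay far below 16. The log2 fold change was 0.93 ± 0.10 (SE), and 3.21% of the tested probe sets had a larger one. Mean signals were 21.4 ± 0.908 in ASL9-ox and 3.68 ± 2.24 in wildtype (SD, n = 3 each). Because the wildtype signal is so low, the size of the change follows the number added before the logarithm: it was 2.405 with 1 added and 0.34 with 64 added.

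CLE21 read 11.2, 10.6 and 13.1 on the ASL9-ox arrays, against 7.97, 4.93 and 4.15 on the wildtype arrays. The groups were 2.64 apart, and wildtype replicate 1 was the nearest to ASL9-ox. Means were 11.6 ± 1.29 in ASL9-ox and 5.69 ± 2.02 in wildtype (SD, n = 3 each), with a log2 fold change of 0.35 ± 0.09 (SE) that 19.4% of the tested probe sets exceeded. It was 0.96 with 1 added to the signal and 0.12 with 64 added.

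CLE27 read 14.7, 14.3 and 18.3 on the ASL9-ox arrays, against 7.67, 14.0 and 12.6 on the wildtype arrays. ASL9-ox replicate 2 and wildtype replicate 2 were only 0.259 apart, and much of the difference between the means came from the low value on wildtype replicate 1. The log2 fold change was 0.22 ± 0.12 (SE), exceeded by 32.4% of the tested probe sets, and it was 0.11 without wildtype replicate 1, 0.46 with 1 added to the signal and 0.08 with 64 added. The groups of CLE27 overlapped when arrays were centred on their medians (a gap of -0.02) or on the hybridization controls (-0.08). Mean signals were 15.7 ± 2.21 in ASL9-ox and 11.4 ± 3.33 in wildtype (SD, n = 3 each).

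**Figure D2:**
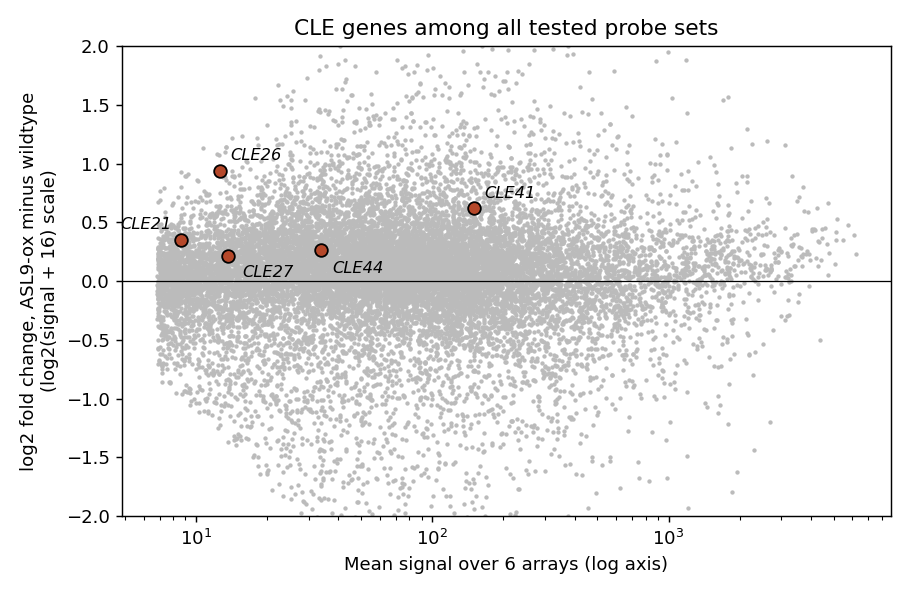
Log2 fold change, ASL9-ox minus wildtype, on the log2(signal + 16) scale against the mean signal over all 6 arrays (log axis) for the 17059 tested probe sets (grey) and the 5 CLE genes (red); 286 probe sets beyond ± 2 are not drawn. CLE26 at 0.93 and CLE41 at 0.62 are the highest of the 5 CLE genes. Larger fold changes were seen for 3.21% of the tested probe sets in the case of CLE26 and 7.755% in that of CLE41.

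The rank of a probe set on its own array does not change when that array is rescaled as a whole. CLE41 exceeded 82.3%, 85.8% and 82.0% of the probe sets on the ASL9-ox arrays, against 77.6%, 72.6% and 74.5% on the wildtype arrays. For CLE44 the shares were 49.9%, 51.5% and 51.2% in ASL9-ox, against 46.3%, 46.2% and 47.7% in wildtype. The difference in rank was thus small for CLE44, although the groups did not overlap. CLE26 exceeded 40.6%, 41.7% and 41.3% of the probe sets in ASL9-ox, against 18.9%, 21.5% and 10.4% in wildtype, the widest separation of the 5 in rank. CLE27 lay at 36.1%, 36.1% and 38.6% in ASL9-ox, against 26.2%, 34.7% and 34.5% in wildtype, and CLE21 at 32.4%, 32.5% and 34.3% in ASL9-ox, against 26.8%, 20.1% and 19.6% in wildtype.

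**Figure D3:**
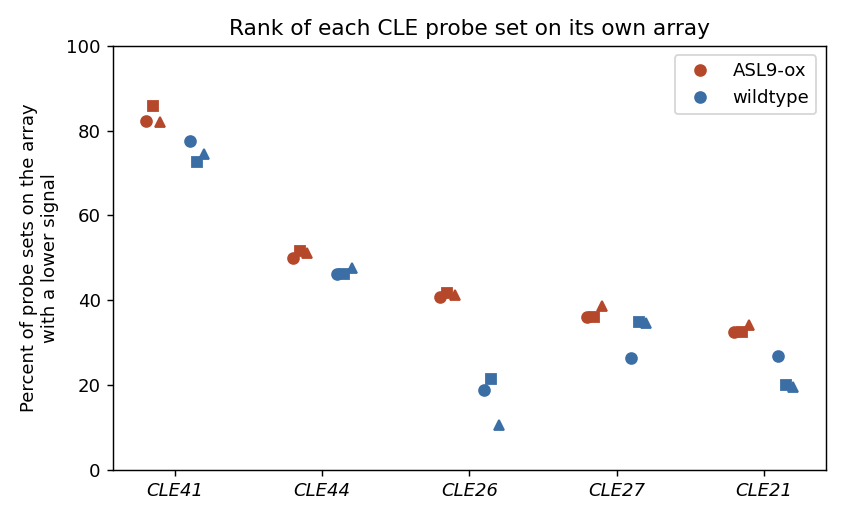
Percent of the probe sets of an array that had a lower signal (vertical axis, 0 to 100) for each CLE gene on the ASL9-ox arrays (left, red) and the wildtype arrays (right, blue), with symbols for the replicate number. The groups do not overlap for any of the 5 genes, and the separation is widest for CLE26 (40.6% to 41.7% in ASL9-ox, 10.4% to 21.5% in wildtype).

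Within the groups the 5 genes did not follow a shared order of arrays. Among the wildtype arrays, replicate 1 was the highest for CLE41 and CLE21 but the lowest for CLE27. Among the ASL9-ox arrays, replicate 2 was the highest for CLE41 and the lowest for CLE27 and CLE21. Likeness was also measured as the Euclidean distance between mean-centred log2 profiles over the 6 arrays. This distance includes the difference between the groups, so it partly restates the fold changes. On the scale of the reported fold changes, CLE44 and CLE21 were the most alike pair (0.252). CLE26 and CLE27 were the least alike (0.960). With 1 added to the signal, the log2 fold changes were 0.38 for CLE44, 0.96 for CLE21 and 0.46 for CLE27. The order of the pairs with 1 added was not tested. CLE41 and CLE44, which encode the same peptide, were 0.537 apart, with log2 fold changes of 0.62 and 0.26. Without wildtype replicate 2, the log2 fold changes were 0.55 for CLE41, 0.25 for CLE44, 1.00 for CLE26, 0.28 for CLE27 and 0.33 for CLE21.

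Of 32 names of CLE family genes, 7 were read by a probe set of their own, and the 2 outside the 5 were CLE40 and CLV3. The other family genes were not analysed here. CLE40, known from the root tip, read 4.09, 3.23 and 3.13 on the ASL9-ox arrays, against 2.55, 2.19 and 1.59 on the wildtype arrays. CLV3, which limits the stem cells of the shoot tip, read 1.17, 0.755 and 0.334 on the ASL9-ox arrays, against 1.04, 0.773 and 1.03 on the wildtype arrays. Both were among the dimmest 25% of probe sets and were not tested, whereas all 5 of the CLE genes described above passed that filter, which required a mean signal over 6.85 on the 6 arrays together. CLE26 and CLE21, with wildtype means of 3.68 and 5.69, passed it only through their ASL9-ox signals. CLE40 was higher on all ASL9-ox arrays and CLV3 overlapped between the groups, both at levels that cannot be told from background without detection calls.

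Genes that sit beside a CLE gene on the chromosome were read by probe sets of their own in 7 of 10 cases, by their order in the RefSeq table. Both neighbours of CLE41 overlapped between the groups: AT3G24760 averaged 111 ± 13.4 in ASL9-ox and 110 ± 19.3 in wildtype, and AT3G24780 averaged 9.33 ± 1.59 in ASL9-ox and 9.50 ± 3.59 in wildtype (SD, n = 3 each). Of all tested probe sets 24.6% rose, 41.7% changed in either direction, and 27.0% had a larger fold change than CLE44. One neighbour of CLE44, AT4G13200, rose by 0.25 on the log2 scale (limma adjusted p = 0.0363), close to the 0.26 of CLE44 itself. That call passed in 8 of 17 alternatives (adjusted p of 0.0313 to 0.374) and was kept in only 1 of the 6 fits without an array, that without ASL9-ox replicate 3; with the replicate block its adjusted p was 0.0815. The neighbours of CLE27, HMT-1 (log2 fold change -0.20, limma adjusted p = 0.123) and AT3G25910 (0.08, limma adjusted p = 0.526), did not pass, and 1 neighbour each of CLE44 and CLE21 was too dim to be tested.

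The genes whose profile lay closest to that of a CLE gene were sought among 9454 other tested probe sets paired with 1 gene. For CLE41 they were AT1G69160 (distance 0.108), AT3G60070 (0.124) and AT2G10940 (0.128), with log2 fold changes of 0.63, 0.59 and 0.65. These fold changes lie near the 0.62 of CLE41 by construction. The distance includes the difference between the groups, on which the CLE genes were chosen, so nothing is read from the likeness. CLE44 lay closest to AT3G11590 (0.0572), AT4G20310 (0.0596) and AT2G40620 (0.0602), the last of which encodes the transcription factor bZIP18. For CLE26 they were SCN1 (0.138), AT5G06930 (0.171) and AT3G55420 (0.180). SCN1 averaged 265 ± 4.71 in ASL9-ox and 135 ± 10.1 in wildtype (SD, n = 3 each). CLE27 and CLE21 stayed below a mean of 16 in both groups and were not matched.

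Among receptors and co-receptors of CLE peptides and kinases like them, 3 of 28 names were measured. Here and below, a measured name matched 1 gene, and the annotation used paired a probe set with that gene alone. A name that was not measured may still have probes on the array. PXY itself and CLV1 were not among the 3. Of these 3, 1 rose and 0 fell, where 24.6% of all 17059 tested probe sets rose and 41.7% changed in either direction. Their median log2 fold change was 0.20, beside 0.08 over all tested probe sets. This list and the gene lists below were chosen with earlier results of these data known, so nothing is read from their counts. MOL1, a receptor-like kinase that represses cambium activity, read 54.0, 53.9 and 67.1 on the ASL9-ox arrays, against 44.2, 35.0 and 47.5 on the wildtype arrays. The groups of MOL1 did not overlap, and its log2 fold change was 0.35 ± 0.11 (SE from limma here and for the genes that follow, limma adjusted p = 0.0340). That call passed in 10 of 17 alternatives (adjusted p of 0.0294 to 0.143), and it was lost without wildtype replicate 1 (0.0558), wildtype replicate 2 (0.107) or ASL9-ox replicate 3 (0.115), with no filter (0.0649) and under all 3 other scalings.

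The receptor kinases most like PXY were dim. PXL1 (AT1G08590) read 9.57, 15.4 and 9.02 on the ASL9-ox arrays, against 16.3, 20.8 and 16.9 on the wildtype arrays. The ASL9-ox arrays were all lower, with a log2 fold change of -0.32 ± 0.13 (SE) that did not pass (limma adjusted p = 0.0706; 0.0311 to 0.187 over 16 alternatives, 3 of which passed, among them that without ASL9-ox replicate 2). PXL2 (AT4G28650) averaged 12.3 ± 3.14 in ASL9-ox and 8.92 ± 5.22 in wildtype (SD, n = 3 each), with overlapping groups (limma adjusted p = 0.391).

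Of genes that act downstream in CLE pathways, 2 of 22 names were measured, and 0 passed (both had an unadjusted limma p above 0.05). Over all tested probe sets 41.7% passed in either direction, and 2 genes are too few to describe the pathway. The median log2 fold change of the 2 was 0.08. WOX4 was not among them. POL, a phosphatase that acts below the CLV receptors, averaged 63.9 ± 7.75 in ASL9-ox and 68.2 ± 3.53 in wildtype (limma adjusted p = 0.534). PTL, a trihelix transcription factor, read 5.32, 17.2 and 19.3 on the ASL9-ox arrays, against 8.65, 7.60 and 9.92 on the wildtype arrays (limma adjusted p = 0.328). ASL9-ox replicate 1 lay below every wildtype array in PTL, and without that array PTL had an adjusted p of 0.0209.

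**Figure D4:**
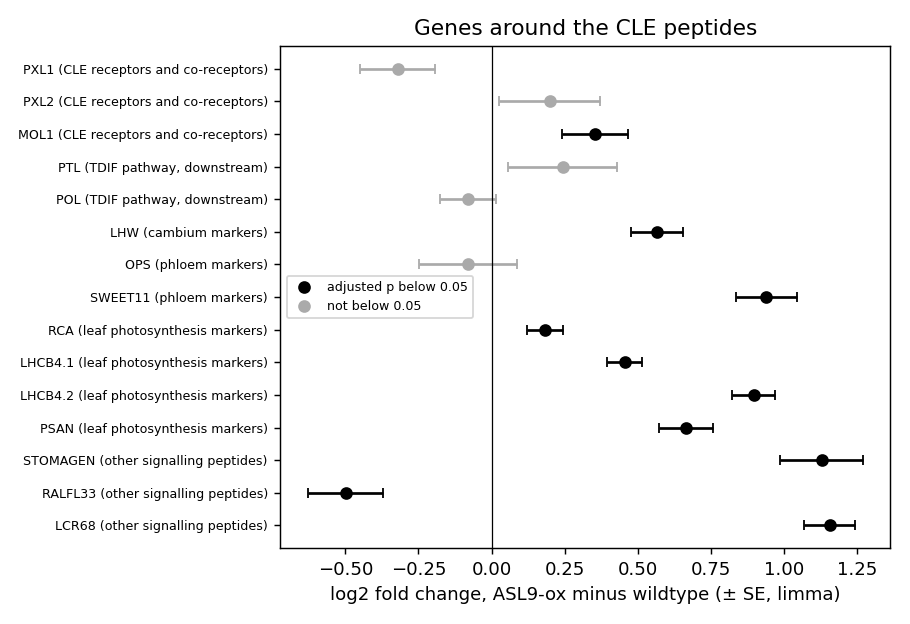
Log2 fold change ± SE, ASL9-ox minus wildtype, from limma for tested genes of the CLE receptor, downstream, cambium, phloem, leaf and other peptide lists; black points had an adjusted p below 0.05 and grey points did not. MOL1 at 0.35 is the only black point among the 5 receptor and downstream genes, and PXL1 at -0.32 and RALFL33 at -0.50 are the lowest points.

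Markers of the tissues in which these peptides act were thinly covered. Of 15 cambium names 3 were measured, and 2 of these rose, where 24.6% of all tested probe sets did. The 2 were MOL1, the same probe set already counted in the receptor list, and LHW, a bHLH transcription factor of vascular cell division. LHW averaged 116 ± 3.20 in ASL9-ox and 73.8 ± 8.51 in wildtype (log2 fold change 0.56 ± 0.09, limma adjusted p = 0.000975). The median log2 fold change of the 3 was 0.35, beside 0.08 over all tested probe sets. The summed signal of the 3 cambium markers was 176 to 199 on the ASL9-ox arrays and 112 to 137 on the wildtype arrays. The cambium count fell to 1 under each of the other scalings, where MOL1 was lost.

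Of 20 phloem names 2 were measured, and 1 of these rose, where 24.6% of all tested probe sets did (median log2 fold change 0.43, and 0.08 over all). SWEET11, a sucrose exporter of phloem parenchyma, read 931, 977 and 818 on the ASL9-ox arrays, against 533, 455 and 414 on the wildtype arrays. The groups were far apart (log2 fold change 0.94 ± 0.10, limma adjusted p = 0.000116). OPS, a membrane protein of young phloem, averaged 10.7 ± 6.46 in ASL9-ox and 11.7 ± 0.790 in wildtype, with overlapping groups (limma adjusted p = 0.727). The summed phloem signal was 823 to 995 on the ASL9-ox arrays and 426 to 545 on the wildtype arrays, nearly all of it from SWEET11. For xylem, 0 of 23 names could be paired with a probe set of their own in the annotation used.

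Leaf photosynthesis markers and, of the root markers, PYK10 also differed between the groups. All 4 measured photosynthesis markers, of 13 names, rose, where 24.6% of all tested probe sets did. Nothing is read from this count, because the list was chosen with earlier results of these data known. The 4 markers had a median log2 fold change of 0.56 (0.08 over all). Their summed signal was 17323 to 18179 on the ASL9-ox arrays and 11851 to 13266 on the wildtype arrays. LHCB4.2, an antenna protein gene, averaged 4340 ± 168 in ASL9-ox and 2330 ± 207 in wildtype, and its log2 fold change of 0.90 was larger than those of PSAN (0.66) and LHCB4.1 (0.46, or 0.19 with quantile normalization). RCA, for Rubisco activase, had only 0.18 (limma adjusted p = 0.0396), passed in 6 of 17 alternatives and was -0.09 with quantile normalization. Without wildtype replicate 1 it passed, and without any of the other 5 arrays it did not (adjusted p of 0.0577 to 0.146).

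Of 18 root names 5 were measured, with a summed signal of 422 to 478 on the ASL9-ox arrays and 2854 to 3197 on the wildtype arrays. This sum was almost wholly PYK10, which encodes a beta-glucosidase abundant in roots, which fell by 2.78 on the log2 scale (limma adjusted p = 2.38e-08). Of the 2 root markers tested, 1 fell and 0 rose, where 41.7% of all tested probe sets changed in either direction. The root hair gene EXPA18, the only other root marker tested, averaged 7.97 ± 6.15 in ASL9-ox and 6.14 ± 2.84 in wildtype. Its groups overlapped (limma adjusted p = 0.759). EXPA7, LBD16 and LBD29 also overlapped between the groups and were too dim to be tested. No marker was at 0. The part of these shifts in tissue markers in the differences of the CLE genes was not tested.

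A list of other small secreted peptides, not all of them signals, gave 3 measured members of 41 names. All 3 passed (2 rose and 1 fell, with a median log2 fold change of 1.13), beside 41.7% called in either direction and a median of 0.08 over all tested probe sets. This list too was chosen with earlier results of these data known, and nothing is read from its count. STOMAGEN, whose peptide promotes stomata, rose by 1.13 on the log2 scale, and LCR68, of the cysteine-rich defensin-like group, rose by 1.16. RALFL33, of the alkalinization factor family, averaged 304 ± 62.6 in ASL9-ox and 432 ± 30.7 in wildtype (log2 fold change -0.50 ± 0.13, limma adjusted p = 0.0130). The 3 peptide genes thus did not all move in the direction seen for the CLE genes.

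**Figure D5:**
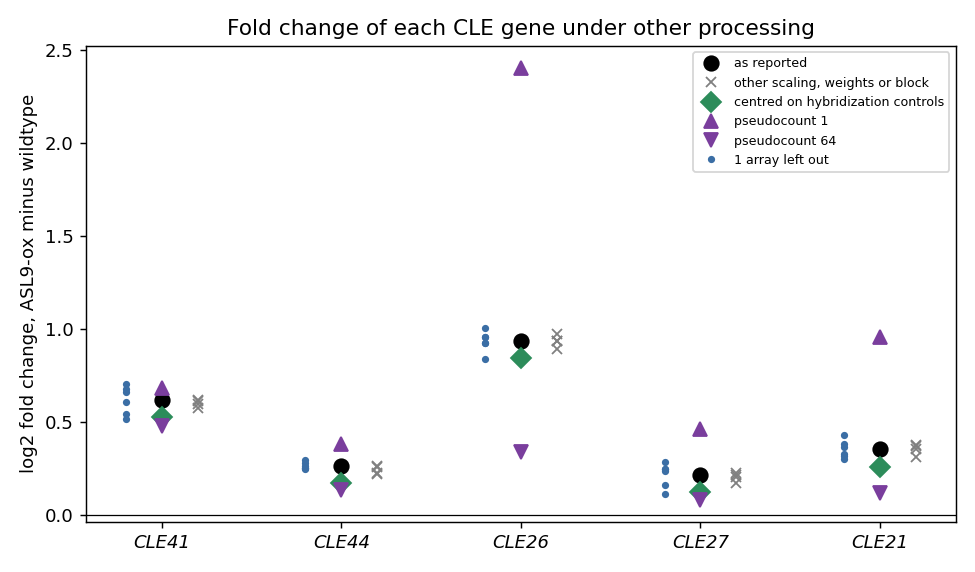
Log2 fold change, ASL9-ox minus wildtype, of each CLE gene as reported (black circle), with 1 or 64 added to the signal (purple), centred on the hybridization controls (green), with 1 array left out (blue dots, left) and with other scalings, array weights or the replicate block (grey crosses, right). All values lie above 0. With the number added, CLE26 ranges from 0.34 to 2.405 and CLE41 from 0.48 to 0.68. With 1 array left out, CLE26 ranges from 0.84 to 1.00 and CLE41 from 0.52 to 0.70.

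Every CLE gene kept a fold change above 0 under the 13 alternatives computed for it, with 0 reversals. With 1 array left out, CLE41 ranged from 0.52 to 0.70, CLE44 from 0.25 to 0.30, CLE26 from 0.84 to 1.00, CLE27 from 0.11 to 0.28 and CLE21 from 0.30 to 0.43. The sign of a difference between groups that do not overlap is fixed by the choice of the genes and says nothing of stability. With centring on the hybridization controls the fold changes were 0.53 for CLE41, 0.17 for CLE44, 0.84 for CLE26, 0.12 for CLE27 and 0.26 for CLE21.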

How the data were processed

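RNA of 6 samples, 3 labelled ASL9-ox and 3 labelled wildtype, was read on 1 Affymetrix ATH1 array each. The deposited values are linear intensities per probe set; the authors made them with MAS5 and GCOS, per the submitters' processing notes, which list no versions. Trimmed array means are equal, so arrays were scaled to 1 level. No detection calls came with the values. Probe sets were named through the platform annotation and the RefSeq table for TAIR10.1, and only those paired with 1 gene were used by name. The CLE21 probe set was joined to its locus by gene symbol only, and those of CLE41, CLE44, CLE26 and CLE27 by gene identifier.

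Signals were transformed to log2(signal + 16). Control probe sets (64) were removed, then the 25% with the lowest mean signal, leaving 17059. limma 3.58.1 in R 4.3.3 (lmFit, eBayes with an intensity trend, two-sided, Benjamini-Hochberg over the 17059, threshold 0.05) compared the groups; it was tested on simulated data. For the CLE genes only differences and standard errors are given. For a gene outside the family, the probe set with the highest mean was used. Labels do not say whether replicates were separate cultures; p-values reflect the spread among these arrays alone, possibly technical. The number of arrays limits the precision.

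The CLE genes and all gene lists were chosen with earlier results of these data known. The text names the probe sets of the 5 CLE genes and of the other family genes read by a probe set of their own. Probe sets shared between a further family gene and another gene were not searched. Per list, it names up to 5 members past the threshold with the largest change and up to 3 others with the highest signal. It also names the 3 genes whose profile lay closest to each CLE gene that reached a mean of 16 in a group. Alternatives were quantile normalization, centring on array medians or on 9 hybridization controls, pseudocounts of 1 and 64, other filters, variance priors and weights, a replicate block, omission of each array, and a threshold of 0.01. Same-numbered arrays had deviations that correlated at -0.12, -0.06 and 0.02 across probe sets, and were not treated as pairs. Genes adjacent to the CLE genes were looked up after seeing the data. matplotlib 3.10.9 drew the figures.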

Additional observations from a re-analysis of the deposited data

How the results depend on the processing

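Of the fold changes of the CLE genes, those that moved by more than the SD between replicates did so with the number added to the signal or with the scaling. With a pseudocount of 1 they were 0.96 for CLE21, 2.405 for CLE26, 0.46 for CLE27 and 0.38 for CLE44, and with 64 they were 0.12 for CLE21, 0.34 for CLE26 and 0.13 for CLE44, by the construction of the scale. CLE44 was at 0.22 with quantile normalization and 0.17 with centring on the hybridization controls. Over all probe sets 7108 passed, 4204 higher and 2904 lower. With arrays centred on those controls 2353 were higher and 3105 were lower. This centring takes the 0.09 by which the controls were higher in ASL9-ox from every fold change. Why the controls differed was not tested. A threshold of 0.01 gave 4581, of which 2541 were higher. The replicate block gave 6177, and of the list genes and AT4G13200 it changed the calls of RCA (0.0648) and AT4G13200 (0.0815), both lost. Of the receptor list, 0 passed with quantile normalization, centring on the hybridization controls, no filter or a threshold of 0.01, 2 with eBayes without trend, and 0 to 2 with 1 array left out. Of the cambium list, 1 passed with quantile normalization, either centring, no filter or a threshold of 0.01, and 1 to 3 with 1 array left out. Of the downstream list, 0 to 1 passed with 1 array left out. Leaving out 1 array left a group with 2 arrays. Signals near or below 16 limit what can be said of CLE26, CLE27 and CLE21.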
